A study of Mus musculus with 14 samples.

Results

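Wnt proteins are secreted, lipid-modified ligands that bind Frizzled receptors together with the co-receptors Lrp5 and Lrp6, which lets beta-catenin accumulate and switch on target genes with TCF/LEF factors, or signal without beta-catenin through other branches. Secreted Frizzled-related proteins and Wif1 bind the ligands, Dickkopf proteins block the co-receptors, and R-spondins with their Lgr receptors keep Frizzled on the cell surface. In skeletal muscle these signals act on satellite cells, the muscle stem cells, during self-renewal, expansion and differentiation. The genes described here are the Wnt ligands, Frizzled and Lrp receptors, secreted antagonists with the Kremen co-receptors of Dickkopf, R-spondins and Lgr receptors, and the target gene Axin2. They were chosen by gene name and comprised 61 probes for 51 genes among 55681 probes. Of these, 53 probes for 44 genes passed the filter on dim probes, and 29 genes were well above background on each of the 14 arrays.

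The arrays measured RNA from satellite cells isolated by flow cytometry from dissociated mouse muscle, with positive selection for integrin a7 and CD34 and removal of cells carrying CD31, CD45, CD11b or Sca1. The C57BL/6 groups were Young (2, 2 and 3 months, n = 3), Old (22, 23 and 24 months, n = 3) and Geriatric (30 and 29 months, n = 2, replicates 1 and 3). The other two groups were 12 months old: SAMP8, an inbred strain that ages early (n = 3), and SAMR1, its related strain that ages normally (n = 3). No group carried a transgene or drug treatment in the labels, and all 14 animals were labelled male. The small amounts of RNA were amplified before hybridisation to single-colour arrays. The study asked how satellite cells change with physiological aging and in a progeric strain, and the comparisons were Old with Young, Geriatric with Young, Geriatric with Old, and SAMP8 with SAMR1. The 3 C57BL/6 comparisons share arrays with each other.

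Levels are log2 of the scanner's processed intensity minus the array's 75th percentile, so 0 is that percentile and each unit is a doubling of intensity. A difference was called when limma's adjusted p, over 32863 genes, was under 0.05. Every difference is given with its standard error. Between 77.1% and 88.8% of probes were well above background on an array, and no spot was saturated. Geriatric replicate 1 had 969 outlier spots, which the main fit dropped, where the other arrays had 94 to 255. All 12 satellite cell markers, Pax7 among them, were well above background in every group. The Y-linked transcripts Ddx3y, Uty and Kdm5d stayed at background on the 6 Young and Old arrays and exceeded it on each of the 8 others, and Xist ran from 5.08 to 5.86 on the Young and Old arrays. Another Y-linked transcript, Eif2s3y, was well above background on every array, at -1.85 to -0.86 on the Young and Old arrays and -0.64 to -0.17 on the others. Xist was also well above background on 1 of 3 SAMR1 and all 3 SAMP8 arrays, at -5.13 to -3.52 in SAMP8. By Xist and 3 of the 4 Y-linked transcripts the Young and Old arrays went against their male label. In each comparison of Geriatric with Young or Old, age and this division of the arrays cannot be told apart. The median of all genes also moved: it was -0.22 between Geriatric and Old, -0.18 between Geriatric and Young and 0.06 between Old and Young. With quantile normalization it was 0.03, -0.04 and -0.04, and with median centring 0.06, -0.11 and -0.15, so a member's difference is read against these shifts.

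The results turn on 6 genes, and the probes that measured them are shown because each level below is the signal of 1 sequence on the array. The first 30 of the 60 bases of each probe are given 5′ to 3′, as the scanner files list them, in lower case with no part singled out. The mm9 positions of the whole probes were chr3:83577864-83577923 for Sfrp2, chr3:131842357-131842416 for Dkk2, chr7:96557478-96557537 for Fzd4 and chr4:124686270-124686329 for Rspo1, all on the plus strand. Those of Fzd1, chr5:4754003-4754062, and Rspo3, chr10:29172930-29172989, were on the minus strand. Exon and transcript boundaries on mm9 were not analysed here.
Sfrp2: tcggcatctaagtcttcaaacatttcgttg
Dkk2: tcagagtgatgatgtcatcagaagtttata
Fzd4: acacacgtaaggtatccagtggatttctct
Fzd1: caaatgccgatacatacataggacctaaat
Rspo1: ccgtggtacacgtcacggatgacctgactt
Rspo3: ggatactactttctaacaaggtgtatctag

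Between Old and Young, 1 of the 44 measured members was called, against a background of 1.44% of all genes (1.20% higher and 0.240% lower). It was the Dickkopf antagonist Dkk2, lower in Old, which passed the filter through the Young arrays alone. Between Geriatric and Young, 4 members were called (background 4.19%, with 1.58% higher and 2.61% lower): Sfrp2 and Fzd4 were higher in Geriatric, and Dkk2 and Rspo1 were lower. Between Geriatric and Old, 5 were called: Sfrp2, Fzd1 and Fzd4 were higher, and Rspo1 and Rspo3 were lower. The background there was 20.0% of all genes, 5.52% higher and 14.4% lower, and the members' share was below it. Between SAMP8 and SAMR1, no member was called by limma (background 0.453%, with 0.225% higher and 0.228% lower), 7 had an unadjusted p under 0.05, and the lowest adjusted p was 0.139, for Sfrp5. An unadjusted p under 0.05 was reached by 6, 13, 9 and 7 members in the comparisons in this order, where the share of all genes was 16.9%, 21.9%, 35.8% and 8.33%. The median difference of the members was 0.12, 0.04, -0.16 and 0.07 in the same order. The median of all genes in the last was 0.01. Groups did not overlap for 6, 25, 21 and 7 members, where 21.5%, 44.2%, 54.9% and 13.1% of all genes had no overlap.

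The split of the calls between higher and lower differed with the scaling in the comparison of Geriatric with Old. Under median centring 4 members were called higher and 2 lower, under quantile normalization 4 higher and 0 lower, with the authors' values 3 were higher and 0 lower, and with another background correction (normexp) 3 were higher and 4 lower. The count there also fell to 1 without Old replicate 1 or without Geriatric replicate 3, to 2 without Old replicate 2, and to 3 without Geriatric replicate 1. Between Geriatric and Young it fell to 2 without Young replicate 3 or without Geriatric replicate 3. Both Geriatric arrays were on the slide that held Young replicate 2 and Old replicates 1 and 3. Fitted within that slide alone, 1 member was called between Geriatric and Old and 0 between Geriatric and Young, where 2 genes of all genes were called and the Young group had 1 array.

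**Figure D1:**
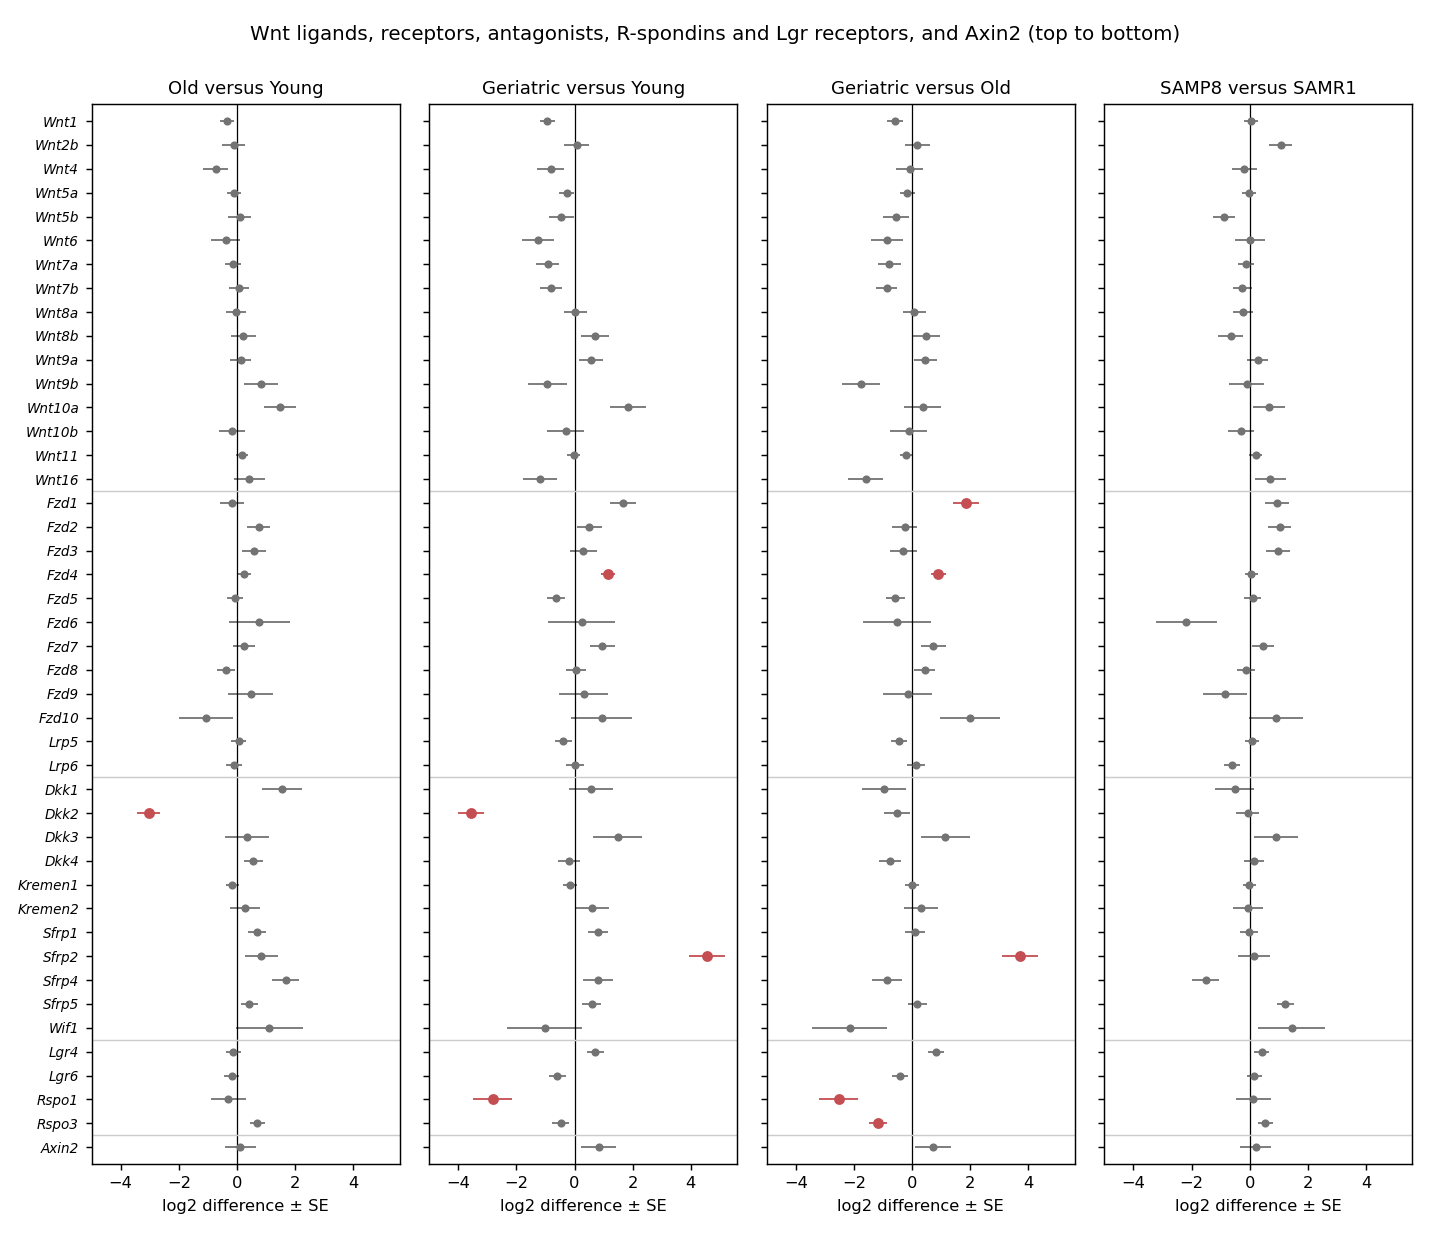
Log2 difference with its standard error (x axis) for the 44 measured members (rows, grouped by role) in the 4 comparisons; red marks an adjusted p under 0.05. The 10 red points are Dkk2 in Old versus Young, 4 members in Geriatric versus Young and 5 in Geriatric versus Old, and SAMP8 versus SAMR1 has 0.

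Among the 19 ligand genes, 16 were measured and 0 were called by limma in any of the 4 comparisons. The numbers with an unadjusted p under 0.05 were 1 between Old and Young, 5 between Geriatric and Young, 3 between Geriatric and Old, and 2 between SAMP8 and SAMR1. Between Geriatric and Young 5 of the 16 ligands were above 0 and 11 below, where 12876 of all 32863 genes were above 0. Their median difference there was -0.38 (median of all genes -0.18). It ran from -0.35 to -0.17 with the other 4 ways of scaling or background correction. The median between Geriatric and Old was -0.18 and turned to 0.11 with median centring. Wnt3a was not well above background on any array, and neither Wnt2 nor Wnt3 passed the filter.

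Wnt1, a ligand that signals through beta-catenin, stood at 2.23, 1.40 and 2.11 on the Young arrays and at 1.43, 1.76 and 1.53 on the Old arrays. The Geriatric arrays were at 0.89 and 1.08, below all Young and Old arrays. The SAMR1 arrays were at 1.28, 0.96 and 1.31, and the SAMP8 arrays at 1.16, 1.54 and 1.03. The difference of -0.93 ± 0.27 between Geriatric and Young missed the threshold (adjusted p = 0.0819). It passed without Young replicate 2, at -1.19 (adjusted p = 0.0254), which was the only Young array on the slide of the Geriatric arrays. With slide as a block the difference was -0.63 (adjusted p = 0.109), and within that slide it was -0.42. A second Wnt1 probe gave -0.73 ± 0.28 (adjusted p = 0.183 with every probe tested on its own).

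Wnt10a, also a beta-catenin ligand, varied widely among the Young arrays, at -4.60, -2.84 and -5.39. The Old arrays were at -2.74, -2.97 and -2.66, all above the lower 2 Young arrays. The Geriatric arrays were at -3.17 and -1.69, and the 6 arrays of the SAM strains ran from -2.06 to -0.91. The difference was 1.49 ± 0.56 between Old and Young (adjusted p = 0.208) and 1.84 ± 0.63 between Geriatric and Young (adjusted p = 0.126). Without Young replicate 2 these became 2.21 (adjusted p = 0.0451) and 2.56 (adjusted p = 0.0166). That array was the only Young array on the slide of the Geriatric arrays. Within that slide the differences were 0.14 between Old and Young and 0.41 between Geriatric and Young. Within the other slide Old exceeded Young by 2.02. With slide as a block the 2 differences were 1.34 (adjusted p = 0.211) and 1.56 (adjusted p = 0.273). With array weights and all arrays kept, the difference between Geriatric and Young was 2.19 (adjusted p = 0.0424) and that between Old and Young 1.81 (adjusted p = 0.109).

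Wnt16, known from bone, and Wnt9b, known from kidney development, had the lowest p-values of the ligands between Geriatric and Old. Wnt16 was at -2.30, -1.81 and -3.10 on the Old arrays and at -3.46 and -4.55 on the Geriatric arrays, a difference of -1.60 ± 0.59 (adjusted p = 0.0769). It passed without Old replicate 3, at -1.95 (adjusted p = 0.0476). It also passed without SAMP8 replicate 1, at an unaltered difference (adjusted p = 0.0426). With normexp correction it was -1.16 (adjusted p = 0.0267), and a second Wnt16 probe gave -0.72 ± 1.10 (adjusted p = 0.671 with every probe tested on its own). Wnt9b was at -3.19, -3.23 and -4.11 on the Old arrays and at -6.18 and -4.35 on the Geriatric arrays, a difference of -1.76 ± 0.66 (adjusted p = 0.0814), and 1 of the 2 Geriatric arrays was well above background. With normexp correction Wnt9b differed by -0.85 (adjusted p = 0.0259). Wnt7b, a ligand used in epithelial and nerve development, differed by -0.88 ± 0.37 between them (adjusted p = 0.111).

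Wnt7a, which expands satellite cells through Fzd7, was nearly level on the Young (0.41, 0.46 and 0.59) and Old arrays (0.43, 0.42 and 0.20). On Geriatric replicate 3 it was -0.43. Geriatric replicate 1 had an outlier spot, which the fit dropped, so the difference of -0.92 ± 0.40 between Geriatric and Young rested on 1 Geriatric array (adjusted p = 0.214). Wnt10b lacked the same array and differed by -0.30 ± 0.63 between these groups (adjusted p = 0.809).

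Wnt4, a ligand made by muscle fibres that acts on satellite cell quiescence, separated Young from Old without a call. The Young arrays were at 2.45, 2.09 and 1.77, all above the Old arrays at 0.76, 1.72 and 1.65, and the difference was -0.73 ± 0.42 (adjusted p = 0.424). Wnt5a, which signals mostly without beta-catenin, ran from -2.03 to -1.17 over all 14 arrays, and its differences lay between -0.27 and -0.04 in the 4 comparisons. Between SAMP8 and SAMR1 the lowest p-values among ligands were those of Wnt2b, with 1.06 ± 0.39 (adjusted p = 0.435), Wnt5b, with -0.88 ± 0.39 (adjusted p = 0.582), and Wnt8b, with -0.65 ± 0.43 (adjusted p = 0.799).

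All 12 receptor genes were measured. Between Geriatric and Young 10 of them were above 0, with a median of 0.31 (all genes -0.18, with 12876 of 32863 above 0). The median was 0.08 with normexp correction, where 8 were above 0, and 0.27 to 0.51 with quantile normalization, median centring and the authors' table. Between Geriatric and Old the median was -0.01 and 6 were above 0 (all genes -0.22, with 13199 of 32863 above 0).

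Fzd4, a receptor for Norrin and several Wnt proteins, was at 1.05, 0.93 and 0.75 on the Young arrays and at 1.01, 0.92 and 1.57 on the Old arrays. The Geriatric arrays were at 1.86 and 2.27, above all of these. The SAMR1 arrays were at 1.73, 1.68 and 1.75 and the SAMP8 arrays at 2.08, 1.63 and 1.62, also above all Young and Old arrays. The group means were 0.91 ± 0.15 (SD, n = 3) in Young, 1.17 ± 0.35 (n = 3) in Old and 2.07 ± 0.29 (n = 2) in Geriatric. Geriatric exceeded Young by 1.15 ± 0.25 (adjusted p = 0.0252) and Old by 0.90 ± 0.25 (adjusted p = 0.0276). With slide as a block the first was 1.06 (adjusted p = 0.0648), and within the slide of the Geriatric arrays the differences were 1.14 and 0.78 (adjusted p = 0.513 and 0.246). The call against Young was lost without Young replicate 3 (adjusted p = 0.0924), Geriatric replicate 1 (0.0603) or Geriatric replicate 3 (0.21). The call against Old was lost without Old replicate 1 (adjusted p = 0.0803), Old replicate 2 (0.0868) or Geriatric replicate 3 (0.214).

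Fzd1, a receptor that signals through beta-catenin, was at -4.03, -3.24 and -3.48 on the Young arrays and at -4.27, -4.10 and -2.93 on the Old arrays. The Geriatric arrays were at -1.62 and -2.20, higher than all 6. The SAMR1 arrays were at -2.19, -2.22 and -2.65 and the SAMP8 arrays at -1.90, -1.65 and -0.68. Geriatric exceeded Old by 1.85 ± 0.46 (adjusted p = 0.0169), and Young by 1.67 ± 0.46 (adjusted p = 0.066). Within the slide of the Geriatric arrays the difference from Old was 1.69 (adjusted p = 0.194). With normexp correction it was 1.06 (adjusted p = 0.0245). The call against Old was lost without Old replicate 1 (adjusted p = 0.0582), Old replicate 2 (0.0544), Geriatric replicate 1 (0.108) or Geriatric replicate 3 (0.0582). Against Young, the difference passed without Old replicate 3 (adjusted p = 0.0363) or SAMP8 replicate 3 (0.0443). Neither array is in that comparison, and the difference stayed at 1.67. With array weights it was 1.72 (adjusted p = 0.0275) and with slide as a block 1.41 (adjusted p = 0.168). Within the slide of the Geriatric arrays the difference from Young was 1.33.

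Fzd7, the receptor of Wnt7a on satellite cells, was measured by 2 probes that were both higher in Geriatric but were not both called. The brighter probe was at -2.80, -1.50 and -1.61 on the Old arrays and at -1.30 and -1.17 on the Geriatric arrays, a difference of 0.73 ± 0.42 (adjusted p = 0.236). The dimmer probe was at -4.25, -3.56 and -3.96 on the Old arrays and at -1.55 and -2.61 on the Geriatric arrays. It gave 1.85 ± 0.56 (adjusted p = 0.0415) with every probe tested on its own, and 2.22 ± 0.56 between Geriatric and Young (adjusted p = 0.0535). The brighter probe gave 0.96 ± 0.43 between Geriatric and Young (adjusted p = 0.233 in the same fit). The mean of the 2 probes differed by 1.29 ± 0.41 between Geriatric and Old (adjusted p = 0.0466). Whether the probes differed from each other was not tested. On mm9 the brighter probe lay at chr1:59541367-59541426 and the dimmer at chr1:59543192-59543251, both on the plus strand, and the first 30 bases of each are shown because the call depends on which is read.
Fzd7, brighter probe: agccccgactttacagtcttcatgatcaag
Fzd7, dimmer probe: aagggaaggtgaacttcaaagtgattctgg

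The other receptors were not called. Fzd10 differed by 1.99 ± 1.04 between Geriatric and Old (adjusted p = 0.191), with 1 of 3 Old arrays well above background. Lrp5 and Lrp6, the co-receptors, differed by -0.38 ± 0.28 and 0.02 ± 0.31 between Geriatric and Young. Between Old and Young, Fzd2 differed by 0.75 ± 0.39 (adjusted p = 0.35), Fzd3 by 0.59 ± 0.42 (adjusted p = 0.519) and Fzd8 by -0.37 ± 0.31 (adjusted p = 0.603). Between SAMP8 and SAMR1, Fzd2 differed by 1.03 ± 0.39 (adjusted p = 0.454), Fzd3 by 0.97 ± 0.42 (adjusted p = 0.554) and Fzd1 by 0.95 ± 0.41 (adjusted p = 0.559), and the SAMP8 and SAMR1 arrays did not overlap for Fzd1 and Fzd2.

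Of 12 antagonist genes, 11 were measured. Among them were Sfrp2 and Dkk2, the members with the lowest adjusted p-values, but Dkk2 passed the filter through the Young arrays alone. Frzb did not pass the filter.

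Sfrp2, a secreted Frizzled-related protein, was the member with the highest difference from Young. Its level was -5.58, -3.65 and -3.54 on the Young arrays, where 2 of 3 were well above background, and -3.26, -3.30 and -3.68 on the Old arrays. On the Geriatric arrays it was 0.00 and 0.62, more than any Young or Old array. The SAMR1 arrays, at -0.17, -1.58 and -0.42, and the SAMP8 arrays, at 0.15, -1.14 and -0.75, lay between the Old and the higher Geriatric array. Geriatric exceeded Young by 4.57 ± 0.62 (adjusted p = 0.00249) and Old by 3.72 ± 0.62 (adjusted p = 0.00259). Old and Young differed by 0.84 ± 0.56 (adjusted p = 0.485), and SAMP8 and SAMR1 by 0.15 ± 0.56 (adjusted p = 0.988). Within the slide of the Geriatric arrays, the differences were 3.96 from Young (adjusted p = 0.128) and 3.78 from Old (adjusted p = 0.0204). Leaving out any 1 array left both calls in place.

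Sfrp2 is also made by fibroblast-like cells, and the sort removed cells with Sca1, a surface protein of fibro-adipogenic cells. The mean of 11 mesenchymal markers ran from 0.07 to 0.26 on the Young, -0.01 to 0.42 on the Old, 0.12 to 0.80 on the Geriatric, 1.01 to 1.32 on the SAMR1 and 1.22 to 1.58 on the SAMP8 arrays. All 11 were well above background in every group. The mean of 4 tenocyte markers ran from -2.06 to -1.53 on the Young and Old, -1.12 to -1.04 on the Geriatric and -1.13 to 0.05 on the SAM arrays, so that Geriatric was above Young and Old. Geriatric was below them for 13 leukocyte markers, at -3.08 to -2.33 against -2.05 to -0.94, and for 10 muscle fibre markers, at -3.37 to -3.07 against -2.80 to -1.84. The part of these lists in the level of Sfrp2 and of the other members was not tested. In bulk RNA, more cells of a type and more RNA per cell cannot be told apart.

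Dkk2, a Dickkopf that binds Lrp5 and Lrp6, was seen in the Young group alone. Its level there was -3.60, -5.15 and -4.88, and all 3 arrays were well above background. On the 11 other arrays it was not well above background and ran from -8.17 to -6.96. The probe was therefore kept only through the group where it was high, and requiring 7 arrays well above background removed it. The other groups give only a bound, which holds for the processed intensity and the floor used. On that scale Dkk2 was at least 1.86-fold lower in Old (fitted difference -3.04 ± 0.40, adjusted p = 0.007). It was at least 3.14-fold lower in Geriatric (fitted difference -3.57 ± 0.45, adjusted p = 0.00175). The bound sets the mean of the Young arrays against a floor on each array of the other group. That floor was the dimmest signal of any probe that counted as well above background, or the Dkk2 probe's own signal where that was higher. It is not a detection limit of the Dkk2 probe, and the normexp and authors' values below gave smaller differences than these bounds. Within slides the fitted differences were -3.08 and -2.57 in Old and -2.97 in Geriatric, with adjusted p between 0.0951 and 0.271. Those fits set 1 array of one group against the other group, and over all genes the lowest adjusted p between Old and Young was 0.10 on slide 1 and 0.119 on slide 2. With normexp correction they shrank to -0.57 in Old (adjusted p = 0.1) and -1.12 in Geriatric (adjusted p = 0.00756), and in the authors' table to -0.73 (adjusted p = 0.0681) and -0.79 (adjusted p = 0.0648).

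**Figure D2:**
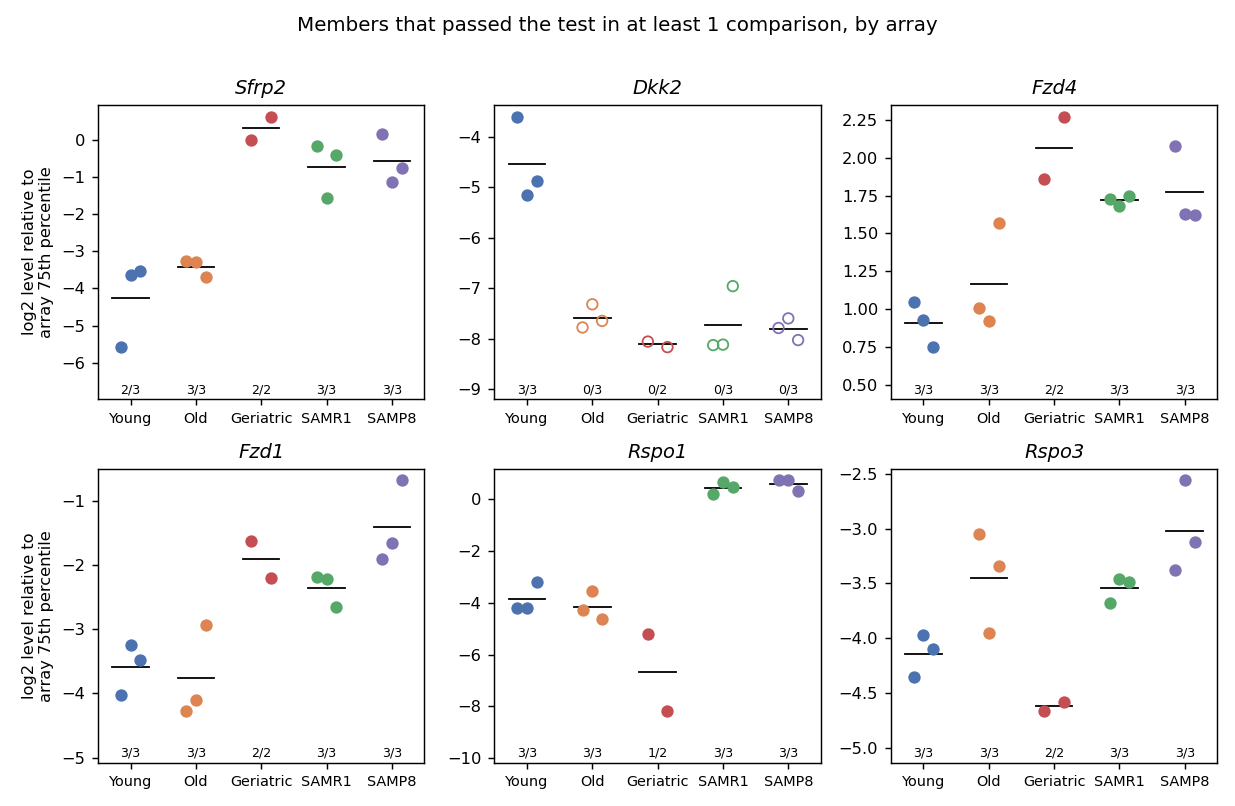
Level on each array (y axis, log2 relative to the array's 75th percentile) of the 6 members called in at least 1 comparison, by group (x axis); lines are group means, n/N is the number of arrays well above background, and open points mark groups with none. Sfrp2, Fzd4 and Fzd1 are higher on both Geriatric arrays than on any Young or Old array, and Dkk2 has filled points in Young alone.

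Sfrp1, which is related to Sfrp2, was at -4.68, -5.05 and -5.23 on the Young arrays, below all Old arrays (-3.99, -4.35 and -4.50) and both Geriatric arrays (-3.90 and -4.44). Its differences from Young were 0.70 ± 0.31 in Old (adjusted p = 0.269) and 0.81 ± 0.34 in Geriatric (adjusted p = 0.196). Sfrp4 was at -3.96, -3.44 and -2.95 on the Young arrays and at -2.44, -1.07 and -1.80 on the Old arrays, a difference of 1.68 ± 0.46 (adjusted p = 0.10), which was 1.92 with slide as a block (adjusted p = 0.0376). Between the SAM strains the same gene went the other way without a call, at -2.27, -2.67 and -2.36 in SAMR1 and -4.67, -2.92 and -4.27 in SAMP8 (-1.52 ± 0.46, adjusted p = 0.298).

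Sfrp5 came closest to a call between SAMP8 and SAMR1. The SAMR1 arrays were at 2.57, 2.40 and 3.19, and the SAMP8 arrays at 3.69, 4.20 and 3.95, with no overlap. The difference was 1.22 ± 0.29 (adjusted p = 0.139). It was 1.23 in the authors' table (adjusted p = 0.0399), and adjusted p was 0.0362 when the variance was allowed to follow the mean.

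Of the remaining antagonists, Dkk1 differed by 1.55 ± 0.68 between Old and Young (adjusted p = 0.272) and by 2.46 (adjusted p = 0.0405) without Young replicate 3. Dkk3, a divergent Dickkopf, ran from -6.25 to -3.52 on the Young arrays and was -3.38 and -3.08 on the Geriatric arrays (1.49 ± 0.84, adjusted p = 0.316). Dkk4 differed by -0.77 ± 0.38 between Geriatric and Old (adjusted p = 0.171). Wif1, which binds Wnt proteins, was well above background on 4 of 14 arrays, and its standard errors were 1.15 or more. Kremen1, the co-receptor of the Dickkopfs, ran from 2.61 to 3.33 over all arrays and differed by -0.16 ± 0.25 between Geriatric and Young. A second Kremen1 probe, from -0.61 to 1.02, differed by 0.46 ± 0.37 between them and by 0.81 ± 0.37 between Geriatric and Old (adjusted p = 0.503 and 0.146 with every probe tested on its own).

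Among the R-spondins and Lgr receptors, 4 of 7 genes were measured. Lgr5, Rspo2 and Rspo4 were not well above background on any of the 14 arrays. All 4 measured genes had no overlap between Geriatric and Young, nor between Geriatric and Old, where 44.2% and 54.9% of all genes had none.

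Rspo1, which strengthens Wnt signalling through the Lgr receptors, was at -4.19, -4.21 and -3.21 on the Young arrays and -4.29, -3.55 and -4.64 on the Old arrays. On the Geriatric arrays it was -5.21 and -8.17, and replicate 3 was not well above background. It was lower in Geriatric by a fitted -2.82 ± 0.67 than in Young (adjusted p = 0.0408) and by -2.53 ± 0.67 than in Old (adjusted p = 0.0239). Without Geriatric replicate 3 these became -1.34 (adjusted p = 0.25) and -1.05 (adjusted p = 0.221). In the authors' table they were -0.79 (adjusted p = 0.112) and -0.49 (adjusted p = 0.185), and with normexp correction -1.06 (adjusted p = 0.037) and -1.01 (adjusted p = 0.0142). With slide as a block they were -2.60 (adjusted p = 0.113) and -2.42 (adjusted p = 0.0373), and within the slide of the Geriatric arrays -2.48 (adjusted p = 0.644) and -2.22 (adjusted p = 0.238).

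The call for Rspo1 against Young was lost without any of 10 of the 14 arrays: each Young array, Old replicate 1, Geriatric replicate 3, each SAMR1 array, and SAMP8 replicates 1 and 2. Over the 9 of these other than Geriatric replicate 3, the difference ran from -2.99 to -2.49 and the adjusted p from 0.0516 to 0.133. The call against Old was lost without Old replicate 1 (-2.59, adjusted p = 0.0547), Old replicate 2 (-2.22, adjusted p = 0.0761) or Geriatric replicate 3.

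Rspo3 was at -4.35, -3.97 and -4.10 on the Young, -3.05, -3.95 and -3.34 on the Old and -4.66 and -4.58 on the Geriatric arrays. The 3 groups did not overlap: Old was above Young, and Geriatric was below both. Geriatric was lower than Old by a fitted -1.18 ± 0.30 (adjusted p = 0.0186). The differences of -0.48 ± 0.30 from Young (adjusted p = 0.356) and of 0.70 ± 0.26 between Old and Young (adjusted p = 0.212) were not called. Within the slide of the Geriatric arrays the difference from Old was -1.43 (adjusted p = 0.0514). In the authors' table it was -0.28 (adjusted p = 0.351), and with normexp correction -0.79 (adjusted p = 0.0139). The call was lost without Old replicate 1 (adjusted p = 0.062), Geriatric replicate 1 (0.087) or Geriatric replicate 3 (0.0966).

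Lgr4, an R-spondin receptor, was at -2.09, -2.32 and -1.57 on the Old and -1.12 and -1.22 on the Geriatric arrays (0.82 ± 0.29, adjusted p = 0.0657). It passed with quantile normalization (1.08, adjusted p = 0.0399) and median centring (1.11, adjusted p = 0.0357), and without Old replicate 3 (1.03, adjusted p = 0.0285) or SAMP8 replicate 2 (adjusted p = 0.0406). Lgr6, another R-spondin receptor, differed by -0.59 ± 0.28 between Geriatric and Young (adjusted p = 0.241).

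Axin2, a feedback inhibitor that beta-catenin induces, is often read as a gauge of the pathway. It was at -2.93, -1.58 and -2.78 on the Young, -3.11, -1.47 and -2.36 on the Old and -1.84 and -1.35 on the Geriatric arrays. The SAMR1 arrays were at -2.51, -1.45 and -1.78 and the SAMP8 arrays at -2.36, -0.70 and -2.08. The groups overlapped in all 4 comparisons, and none was called in the main fit. Geriatric differed by 0.83 ± 0.61 from Young (adjusted p = 0.436) and 0.72 ± 0.61 from Old (adjusted p = 0.415). Replicate 2 was the highest array of every group that held it, and Geriatric held none. With replicate number as a block, Axin2 passed against Young (1.23 ± 0.26, adjusted p = 0.0421) and Old (1.11 ± 0.26, adjusted p = 0.0232). Within the slide of the Geriatric arrays the differences were -0.02 from Young and 1.14 from Old. A second Axin2 probe was well above background on 2 of 14 arrays.

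**Figure D3:**
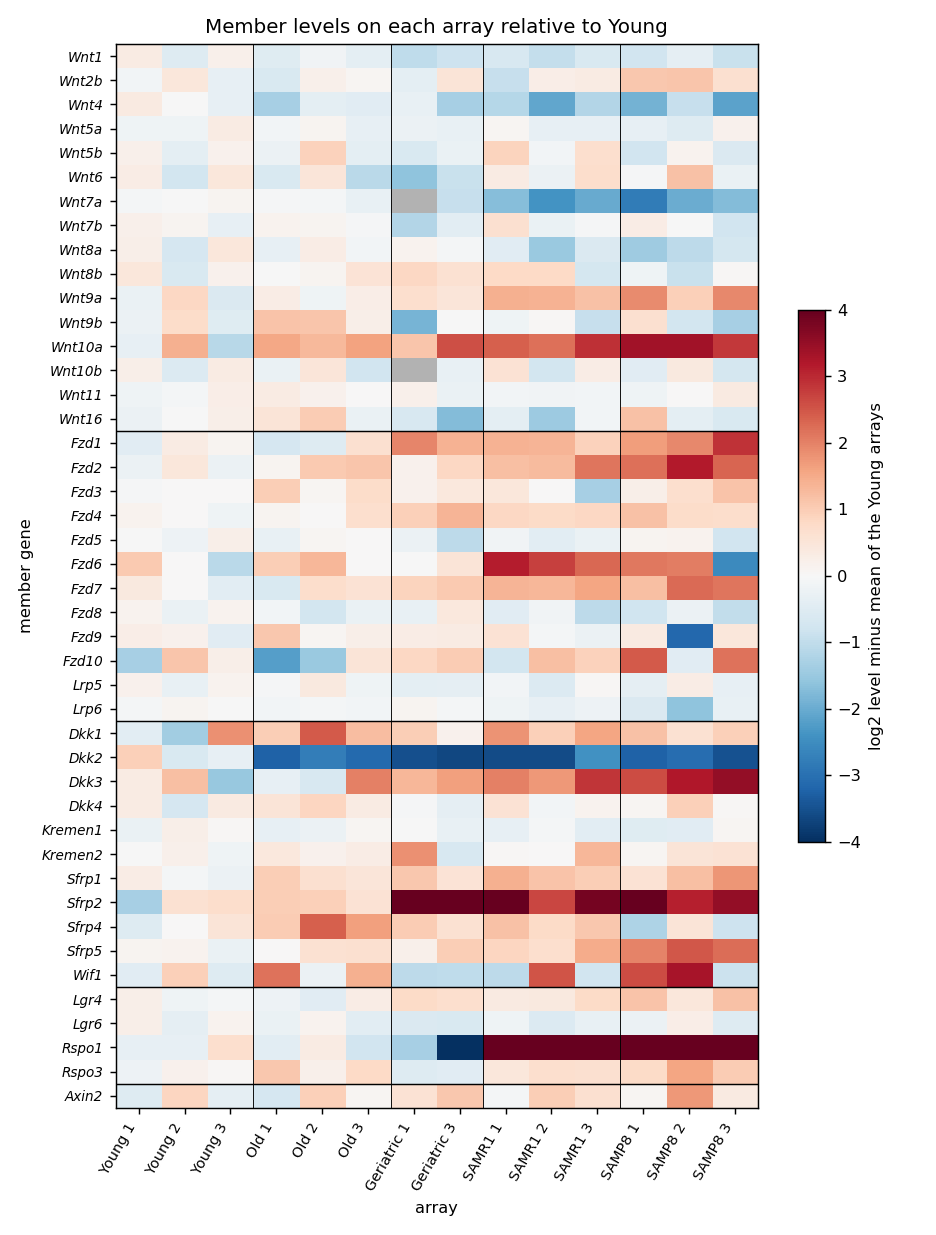
Level of each of the 44 measured members (rows, grouped by role) on each of the 14 arrays (columns), as log2 difference from the mean of the Young arrays; colours saturate at 4 units either way and grey marks the 2 dropped spots. The rows of Sfrp2, Dkk2 and Rspo1 stand out, with Sfrp2 high on the Geriatric and SAM arrays, Dkk2 low outside Young, and Rspo1 high on the 6 SAM arrays.

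The SAM strains and the C57BL/6 mice differ in strain, age and, for Young and Old, in the sex-linked transcripts, which cannot be told apart, so their levels are given as a description with no test. For 6 of 44 members the 6 SAM arrays did not overlap the 8 C57BL/6 arrays, 4 higher and 2 lower, where 4.13% of all genes had no overlap (1.96% higher and 2.17% lower). Rspo1 ran from 0.20 to 0.73 on the SAM arrays and from -8.17 to -3.21 on the C57BL/6 arrays, a difference of means of 5.20. Wnt7a ran from -2.32 to -1.21 on the SAM arrays and from -0.43 to 0.59 on the 7 C57BL/6 arrays with a value. Fzd2 was higher on the SAM arrays by both of its probes, from 1.95 to 3.91 against 0.50 to 1.84 for the brighter. Fzd7 ran from -1.01 to 0.07 against -2.80 to -1.17 by its brighter probe, while its dimmer probe overlapped. Wnt9a ran from -1.05 to -0.08 on the SAM arrays against -2.58 to -1.18. Lrp6 was lower by its brighter probe, from 3.40 to 4.86 against 4.90 to 5.14, and overlapped by its dimmer probe.

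Markers of some other cell types moved with this division, though the endothelial ranges met at -0.59. The means of leukocyte, muscle fibre, Schwann cell and tenocyte markers overlapped between the SAM and C57BL/6 arrays. The mean of 11 endothelial markers ran from 1.23 to 2.51 on the SAMR1 arrays, from -0.59 to 2.14 on the SAMP8 arrays and from -2.81 to -0.59 on the C57BL/6 arrays. That of 11 smooth muscle and pericyte markers ran from 1.55 to 2.10 on the SAM arrays and from 0.68 to 1.28 on the C57BL/6 arrays. Fzd6 and the endothelial marker Pecam1 were both lowest of the SAM arrays on SAMP8 replicate 3, which was at -6.66 for Fzd6 and 0.61 for Pecam1. The other 5 SAM arrays ran from -2.05 to -0.97 and from 2.39 to 3.80. Fzd6 itself overlapped between the SAM and C57BL/6 arrays. On SAMP8 replicate 3, the members that were higher on the SAM arrays were at 0.30 (Rspo1), 3.07 (Fzd2), -0.07 (Fzd7) and -0.08 (Wnt9a). Those that were lower on the SAM arrays were at -1.25 (Wnt7a) and 4.74 (Lrp6). The part of these markers in the members' levels was not tested.

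**Figure D4:**
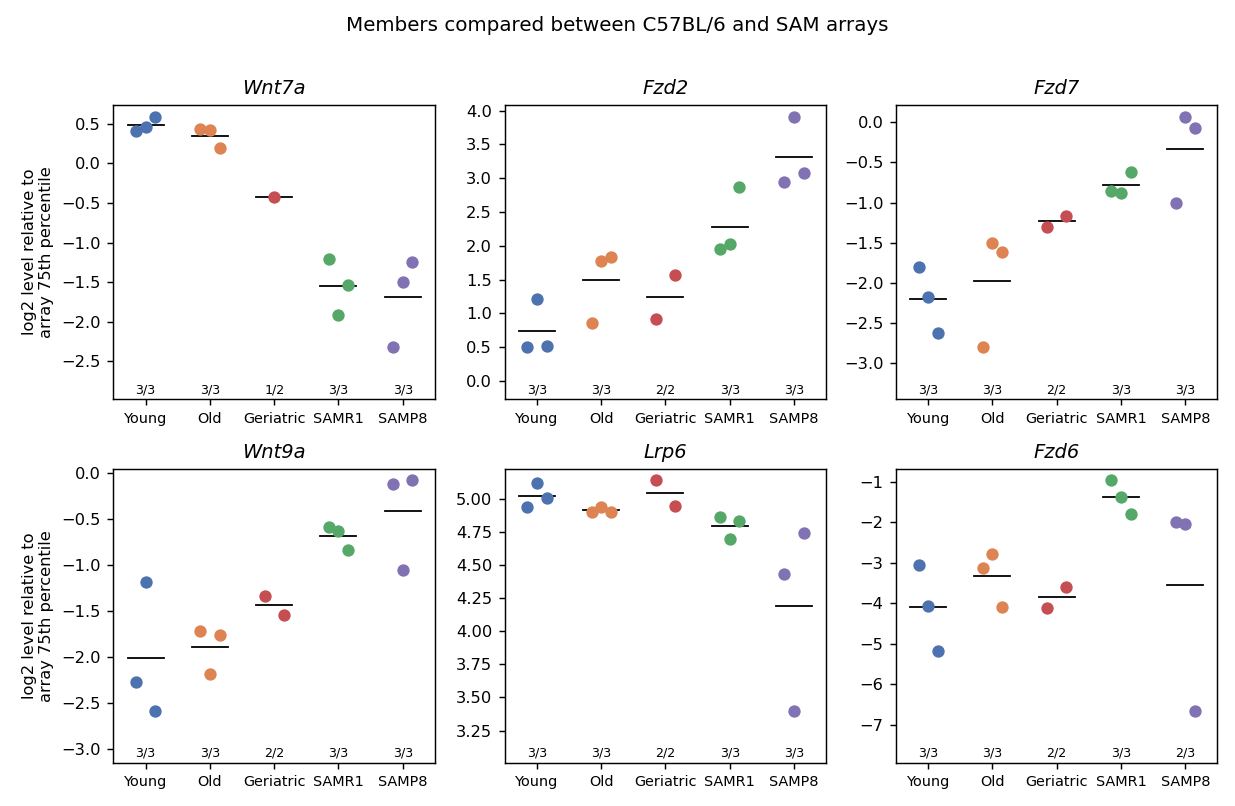
Level on each array (y axis, log2 relative to the array's 75th percentile) of Wnt7a, Fzd2, Fzd7, Wnt9a, Lrp6 and Fzd6 by group (x axis), with group means as lines and n/N the arrays well above background. Wnt7a and Lrp6 are lower and Fzd2, Fzd7 and Wnt9a higher on all 6 SAM arrays than on any C57BL/6 array, and for Fzd6 the lowest SAMP8 array, at -6.66, lies below all others.

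Genes around the members in the pathway were read from 4 lists, against the same shares of all genes called: 1.44% between Old and Young, 4.19% between Geriatric and Young, 20.0% between Geriatric and Old and 0.453% between SAMP8 and SAMR1. Among 30 genes of Wnt secretion, co-receptors and planar polarity, 0 were called by limma between Old and Young and between SAMP8 and SAMR1, with 3 and 2 at an unadjusted p under 0.05. There were 3 higher between Geriatric and Young, and 4 higher and 1 lower between Geriatric and Old. The median difference was 0.23 in both, against -0.18 and -0.22 for all genes. The lowest p between Old and Young was that of the polarity gene Vangl2 (-0.91 ± 0.25, adjusted p = 0.105).

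Wls, the carrier that brings Wnt proteins to the cell surface, was at -2.95, -2.33 and -2.29 on the Young and -2.28, -2.22 and -2.34 on the Old arrays. The Geriatric arrays were higher than all of these, at -0.92 and -1.01 (1.56 ± 0.28 from Young, adjusted p = 0.0109, and 1.32 ± 0.28 from Old, adjusted p = 0.00889). Both calls were lost without Geriatric replicate 1 (adjusted p = 0.0743 and 0.0538) or replicate 3 (0.072 and 0.0578). Ror2, a receptor of Wnt5a, was well above background on 1 of 3 Young, 0 of 3 Old and 2 of 2 Geriatric arrays. It was at -2.66 and -3.04 in Geriatric, and at most -4.48 in Young and -5.45 in Old, a difference of 3.39 ± 0.79 from Young (adjusted p = 0.0359). The call against Young was lost without any 1 of 6 arrays: Young replicates 2 and 3, both Geriatric arrays, and SAMR1 replicates 1 and 2, with adjusted p from 0.0512 to 0.162. It was also lost with slide as a block (3.46, adjusted p = 0.0822) and with the replicate block (3.01, adjusted p = 0.0512), and with normexp correction the difference was 0.98 (adjusted p = 0.0319). Daam1, a formin of the planar polarity branch that binds Dishevelled, was higher in Geriatric by 1.31 ± 0.30 than in Young (adjusted p = 0.0352) and by 1.39 ± 0.30 than in Old (adjusted p = 0.00969), and without Geriatric replicate 3 neither was called (adjusted p = 0.235 and 0.0981). The call of Daam1 against Young was also lost without Young replicate 1 or 3, Geriatric replicate 1, or SAMR1 replicate 1 or 2 (adjusted p from 0.0502 to 0.09), with slide as a block (1.05, adjusted p = 0.0757) and with the replicate block (1.29, adjusted p = 0.0844). Tspan12, a partner of Fzd4, was higher in Geriatric than in Old (1.55 ± 0.35, adjusted p = 0.0114), and the glypican Gpc5 was lower (-1.87 ± 0.41, adjusted p = 0.00995). The first was lost without Geriatric replicate 3 (adjusted p = 0.0891) and the second without Geriatric replicate 1 (adjusted p = 0.0894).

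Among 12 other extracellular modulators, 1 was called: Wisp2, a secreted protein of the CCN family. Its level was -2.33, -2.76 and -2.38 on the Young, -2.73, -2.93 and -2.85 on the Old, and 0.33 and 1.24 on the Geriatric arrays. The SAMR1 arrays, at 1.20, 0.63 and 1.5, and the SAMP8 arrays, at 0.08, 0.02 and 0.52, were also above all Young and Old arrays. Geriatric exceeded Young by 3.27 ± 0.32 (adjusted p = 0.000378) and Old by 3.62 ± 0.32 (adjusted p = 8.86e-05), and both calls held without any 1 array.

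Among 42 intracellular genes of the beta-catenin pathway, 1 was higher between Geriatric and Young, and 3 were higher and 1 lower between Geriatric and Old, both below the shares of all genes (4.19% and 20.0%). Tle2, a co-repressor of TCF factors, was higher in Geriatric by 1.74 ± 0.33 than in Young (adjusted p = 0.0144) and by 1.75 ± 0.33 than in Old (adjusted p = 0.00518). Without Geriatric replicate 3 these missed the threshold (adjusted p = 0.126 and 0.0557), as did the first without Geriatric replicate 1 (0.0629) or Young replicate 3 (0.0555). Fbxw11, which marks beta-catenin for destruction, and Pygo2, a nuclear partner of beta-catenin, were higher in Geriatric than in Old (0.81 ± 0.21, adjusted p = 0.022, and 0.92 ± 0.25, adjusted p = 0.0251). Bcl9l, another nuclear partner, was lower (-1.15 ± 0.30, adjusted p = 0.021). The calls of Pygo2 and Bcl9l were lost without Old replicate 1, Old replicate 2 or Geriatric replicate 3, with adjusted p from 0.0603 to 0.223. That of Fbxw11 was lost without those or Geriatric replicate 1, with adjusted p from 0.0516 to 0.109.

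Among 23 genes listed as beta-catenin targets, 1 was called: Fosl1, a partner of Jun in AP-1. It was at -0.56, 0.50 and 0.71 on the Old arrays and -2.56 and -3.95 on the Geriatric arrays, lower by a fitted -3.48 ± 0.67 (adjusted p = 0.00564). Without Geriatric replicate 3 the difference was -2.78 (adjusted p = 0.0736). The Young arrays lay between, at -2.41, -0.72 and -1.89. Sp5, a direct target, had the lowest p of the list between Geriatric and Young (-0.82 ± 0.26, adjusted p = 0.11). Of the 16 calls in the 4 lists, 3 were kept within the slide of the Geriatric arrays: those of Wisp2, Ror2 and Tle2 against Old (adjusted p = 0.0192, 0.023 and 0.0497).

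**Figure D5:**
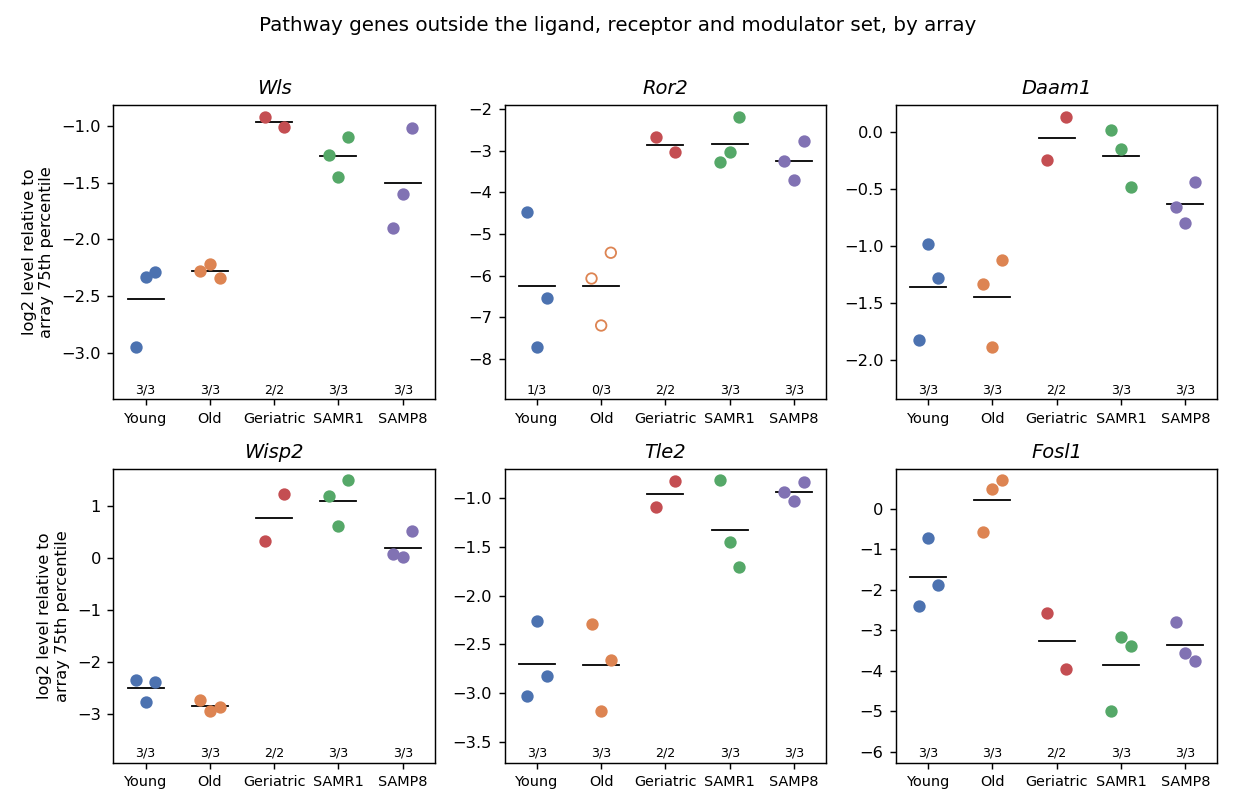
Level on each array (y axis, log2 relative to the array's 75th percentile) of Wls, Ror2, Daam1, Wisp2, Tle2 and Fosl1 by group (x axis), with group means as lines, n/N the arrays well above background and open points for groups with none. Wls, Ror2, Daam1, Wisp2 and Tle2 are higher on both Geriatric arrays than on any Young or Old array, and the SAM arrays lie on the same side.

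The 250 bases before the start of each gene were read for the TCF/LEF motif, spelled CTTTGAA in one form and CTTTGAT in another, with CTTTGTA as well as CTTTGTT also counted, on either strand. RefSeq promoters on GRCm38.p6 matched 33 of 51 members, with 36 promoters, and 11.1% of these held a motif, against 14.8% of 32851 promoters of all genes. The members with a motif were Dkk1, Fzd7, Wnt11 and Wnt5b. None was present in the windows of Sfrp2, Dkk2, Fzd1, Fzd4, Rspo1 or Axin2, and Rspo3 had no matched promoter. Since beta-catenin induces Axin2, the lack of a motif in this window does not tell whether a gene is a target. The window of Fzd7, chr1:59481897-59482146 on the plus strand of GRCm38.p6, is shown with the motif in capitals, read on the opposite strand, because its 2 probes did not give the same call. That of Sfrp2, chr3:83766071-83766320 on the plus strand, is shown as the window of the member with the highest difference.
Fzd7: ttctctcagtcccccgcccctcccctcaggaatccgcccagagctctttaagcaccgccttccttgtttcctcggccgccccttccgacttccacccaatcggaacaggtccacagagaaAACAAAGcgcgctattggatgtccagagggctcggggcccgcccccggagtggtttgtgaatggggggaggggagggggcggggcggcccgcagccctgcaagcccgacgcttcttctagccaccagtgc
Sfrp2: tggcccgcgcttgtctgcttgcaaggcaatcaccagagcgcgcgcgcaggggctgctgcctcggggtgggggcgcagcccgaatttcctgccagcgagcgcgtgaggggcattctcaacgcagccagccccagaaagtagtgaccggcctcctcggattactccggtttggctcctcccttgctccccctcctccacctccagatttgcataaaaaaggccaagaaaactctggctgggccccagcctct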

How the data were processed

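RNA of sorted satellite cells from 14 mice was amplified and labelled with Cy3, per the labels' protocols. The authors scanned single-colour Agilent arrays with Feature Extraction 10.7.3.1, whose processed intensity is a linear signal after background correction, per the file headers, which also give probe positions on mm9. The authors' deposited table holds log2 values. Over all spots it equals normexp correction (offset 50) followed by quantile normalization to within 0.000117, with a median of 7.8 in every column; it was used as an alternative.

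The main values were log2 of the processed intensity without outlier spots (515 missing values in the fit), averaged over spots of a probe, minus the array's 75th percentile. A probe was kept where at least 2 arrays of a group were well above background (49918 probes), and the probe with the highest mean stood for its gene. Gene names are those of the array design. limma 3.58.1 in R 4.3.3 fitted 5 groups over 14 arrays (lmFit, eBayes, Benjamini-Hochberg). The number of arrays limits the precision. Titles call the samples biological replicates. Figures were drawn with matplotlib 3.10.9.

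Replicate numbers were shared by groups and were not used to pair the samples in the main fit. Slides were read from the array identifiers. Members and gene lists were chosen with earlier results of these data known. Named genes were the members called in any comparison, the 3 with the smallest p per role and comparison, members fixed by name, and the called or smallest-p genes of the 4 pathway lists. The script was tested on simulated data. Alternatives changed the background correction, scaling, filter, probe choice, slide, block, weights, variance model and single arrays.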

Additional observations from a re-analysis of the deposited data

Results flagged for a closer look

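In the fit over all arrays, the difference between Geriatric and Young was set against the difference between SAMP8 and SAMR1. It differed for 2 members: by -3.50 ± 0.61 log2 units for Dkk2 (limma, adjusted p = 0.0159) and by 4.42 ± 0.83 for Sfrp2 (adjusted p = 0.0232). The share of all genes that differed in this way was not counted, so the number of members is not read as a result. For Sfrp2 the SAMR1 and SAMP8 means, -0.72 and -0.58, were both far above the Young mean of -4.25 and nearer the Geriatric mean of 0.31. The small difference between the SAM strains was thus between 2 high groups. Dkk2 was well above background in Young alone and passed the filter only through that group, so its value sets floor signals of Geriatric, SAMR1 and SAMP8 against each other and against Young, and its size and p depend on that floor. For both, age within C57BL/6 and the sex-linked transcripts that divide Young from Geriatric cannot be told apart.

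Of the 7 members that did not pass the filter, Lgr5, Rspo2, Rspo4 and Wnt3a were well above background on 0 of 14 arrays. The others were well above background on 1 or 2 arrays, none of them Young. Frzb was at -5.36 on Old replicate 1 and -5.02 on SAMP8 replicate 1. Wnt3 was at -5.08 on Old replicate 1. Wnt2 was at -4.18 on Old replicate 1 and -2.76 on Geriatric replicate 1. Old replicate 1 had 88.8% of probes well above background, the highest share of the 14 arrays.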

How the results depend on the processing

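No called member changed direction under any alternative: of 289 values of called members across alternatives, 230 stayed called and 59 missed the threshold. Of 4891 values of uncalled members, 25 passed it. The count of called members between Geriatric and Old (5) was 3 in the authors' table, 1 within the shared slide and 1 with only those groups fitted, and 1 to 7 leaving out single arrays. Between Geriatric and Young (4) it was 2 in the authors' table, 2 with slide as a block, 0 within the shared slide, 0 with only those groups fitted and 7 with array weights, and 2 to 5 leaving out single arrays. Between Old and Young (1) it was 0 with normexp, in the authors' table, with the filter at 7 arrays, within either slide and with only those groups fitted, and 2 with slide as a block; it was 1 to 2 leaving out single arrays. Between SAMP8 and SAMR1 (0) it was 1 in the authors' table and 1 with a variance trend, and 0 to 0 leaving out single arrays. The causes were not tested, beyond the fewer arrays in the fits within a slide or of single groups. Over all genes, the counts between Geriatric and Old were 6561, 1553 within the slide and 3001 with only those groups. Over all genes, deviations from group means correlated at -0.255 to 0.192 between arrays of different groups with the same replicate number. For different numbers they correlated at -0.192 to 0.196. These values do not show whether single genes share a replicate effect. With the replicate block the counts of called members were 5, 3, 1 and 0 in the same order, and 7 of the 10 calls were kept. Fzd4 lost its calls against Young (adjusted p = 0.0738) and Old (adjusted p = 0.0679), and Rspo1 lost that against Young (adjusted p = 0.085). Axin2 passed against Young (1.23, adjusted p = 0.0421) and Old (1.11, adjusted p = 0.0232). Where leaving out a Geriatric array left 1, that array was assumed to vary like the others. Signals near the floor limit Dkk2, Wif1 and Rspo1.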
